A study of Homo sapiens with 2 samples.

Results

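The genes described here encode the machinery that makes microRNAs and silences messages with them: DROSHA, DGCR8, XPO5, DICER1, TARBP2, the Argonautes AGO1, AGO2, AGO3 and AGO4, and TNRC6A. They were found as every probe set whose platform annotation carried exactly 1 gene symbol and that symbol was one of these 10 names. This gave 31 probe sets for 9 of the 10 genes, out of 19775 genes with such a probe set on the array. DGCR8 had none, because its 4 probe sets also carry the symbol MIR1306, a microRNA gene that lies inside DGCR8 in the RefSeq gene table, so DGCR8 has no value here. A further 3 probe sets pair AGO2 with another symbol and were also left out. None of these 7 shared probe sets reached 2-fold either way.

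RNA came from U251, an established human glioma cell line, grown in DMEM with serum. One array was made from cells that received miR-31 and one from cells that received a control, 2 arrays in all, both hybridised to the Affymetrix HG-U133_Plus_2 array, and the labels do not say what the constructs were. With 1 array per group there is no replicate spread and no test: every difference is between 2 RNA samples, and this number of arrays limits the precision. A value is a deposited intensity in linear units, and a ratio is log2(intensity + 16) of the miR-31 array minus that of the control array, which understates the change of dim probe sets.

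MicroRNAs are cut out of long transcripts in steps. In the nucleus DROSHA, held by DGCR8, frees a hairpin; XPO5 carries it to the cytoplasm with the GTPase RAN; DICER1, with its partner TARBP2, cuts off the loop; and 1 strand stays in an Argonaute protein, which finds messages by the seed of that strand and recruits TNRC6A to silence them. The over-expressed microRNA itself is shown because it is both a product of this machinery and, in the literature, a reported regulator of DICER1. The sequences are RefSeq's on GRCh38.p14. The MIR31 hairpin lies at chr9:21512115-21512185 on the minus strand and has 71 bases, with the mature arm, bases 8 to 28, in capitals. DROSHA cuts at the outer end of this arm and DICER1 at its loop end. The mature miR-31-5p, at chr9:21512158-21512178, has 21 bases, and the capitals in its line mark the seed, bases 2 to 8.
MIR31 hairpin: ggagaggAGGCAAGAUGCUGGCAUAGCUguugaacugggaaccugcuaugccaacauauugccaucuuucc
hsa-miR-31-5p: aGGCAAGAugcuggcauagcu
Of 2370 mature human microRNAs in the table, miR-31-5p was the only one with this seed. The array does not read mature microRNAs, so the level of miR-31 was not checked.

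On the deposited scale no gene of the machinery differed by as much as 1.5-fold between the arrays when each was read by its brightest probe set. TARBP2 passed 1.5-fold downwards after quantile normalization (-0.65) and after subtraction of a level trend (-0.64). It did so together with XPO5 when centred on hybridisation controls (-0.74 and -0.62), and 7 of 9 genes did when centred on poly-A controls. With the poly-A centring 84.8% of all genes compared were lower, and their median was -0.47. The share of all genes past 1.5-fold under these scalings was not counted, so these member counts have no background beside them. All 9 genes had at least 1 probe set whose mean intensity over both arrays reached the median of all probe sets that are not controls, 64.4, which is the level minimum used here. So did 11806 of the 19775 genes with a probe set of 1 symbol. In the miR-31 array 7 of the 9 genes were lower and 2 higher; ratios ran from -0.55 (TARBP2) to 0.42 (AGO4), and their median was -0.18. Among the 11806 genes compared 46.7% were lower and the median was 0.03. At 2-fold, 0 of 9 were higher and 0 lower, against 4.12% and 1.74% of all genes compared. At 1.5-fold the counts were also 0 and 0, against 12.1% and 6.89%.

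**Figure D1:**
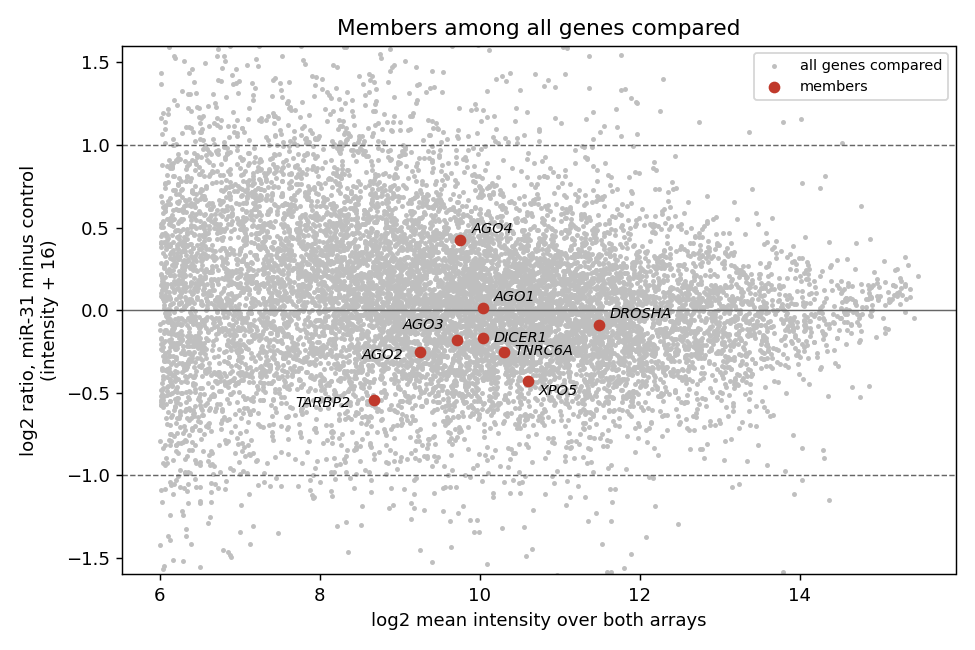
Each point is a gene, with the log2 mean intensity of its brightest probe set on the x axis and its log2 ratio, miR-31 minus control, on the y axis; dashed lines mark 2-fold, and the y axis leaves out genes beyond 1.6 either way. The 9 members lie between -0.55 and 0.42, inside the cloud of 11806 genes.

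The spread between probe sets of one gene gives a gauge for these ratios. Over 3151 genes with exactly 2 probe sets above the level minimum, the SD of a probe set's ratio was 0.35. That figure holds only what sets the probe sets of a gene apart, not what sets 2 cultures apart. DROSHA, DICER1, AGO1, AGO2, AGO3 and TNRC6A lay within this SD of 0, and 60.2% of all genes did. XPO5, TARBP2 and AGO4 lay beyond it.

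DROSHA, the RNase III enzyme of the nucleus, was close to equal on both arrays. Its single probe set had 2780 in the miR-31 array and 2966 in the control array, a ratio of -0.09. A ratio below this was found in 36.9% of all genes compared.

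XPO5, which encodes the export receptor exportin-5, was lower in the miR-31 array on all 3 of its probe sets. All 3 are named _s_at, so XPO5 drops out where such probe sets are left out. The brightest had 1325 in the miR-31 array and 1789 in the control array, a ratio of -0.43. The second had 464 and 805 in the same order, and its ratio of -0.78 was the only one past 1.5-fold downwards among the 23 member probe sets above the level minimum. The dimmest had 297 in the miR-31 array and 328 in the control array (-0.14). The probe sets thus share a direction and spread over 0.64 on the log2 scale, and 12.0% of all genes had a lower ratio than the brightest of them.

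DICER1, the enzyme that turns hairpins into duplexes, was lower by small amounts. Its brightest probe set had 989 in the miR-31 array and 1114 in the control array (-0.17). The next had 779 and 981 in the same order (-0.33), and the third 282 and 284 (-0.01). The 3 ratios lie between -0.33 and -0.01, all within the 0.35 of the probe set gauge. DICER1 has 3 more probe sets under the level minimum, where, without detection calls, a value cannot be separated from background here. Of these, one had 47.6 in the miR-31 array and 58.3 in the control array, one 3.52 and 30.2, and one 3.09 and 8.72. The ratios of these were -0.22, -1.24 and -0.37. The antisense gene DICER1-AS1, looked up because it overlaps DICER1, was under the minimum on both of its probe sets, with 50.5 in the miR-31 array against 32.9 in the control array on one and 12.7 against 4.20 on the other.

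TARBP2, the double-stranded RNA-binding partner of DICER1, had the lowest ratio of the 9 genes. Its brighter probe set had 331 in the miR-31 array and 490 in the control array, a ratio of -0.55, and 7.99% of all genes compared had a lower one. The other probe set went the opposite way, with 46.0 in the miR-31 array and 6.12 in the control array (1.49), but its mean is under the level minimum. There 18.8% of named probe sets were at least 1.5-fold higher, and the share at least 2-fold higher, as this one was, was not counted. The direction of TARBP2 therefore rests on 1 probe set, which is also named _s_at. PRKRA, which encodes PACT, the related DICER1 partner, was looked up for that kinship after values were seen. It had 2499 in the miR-31 array and 2168 in the control array (0.20), with 0.56 on its other probe set.

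**Figure D2:**
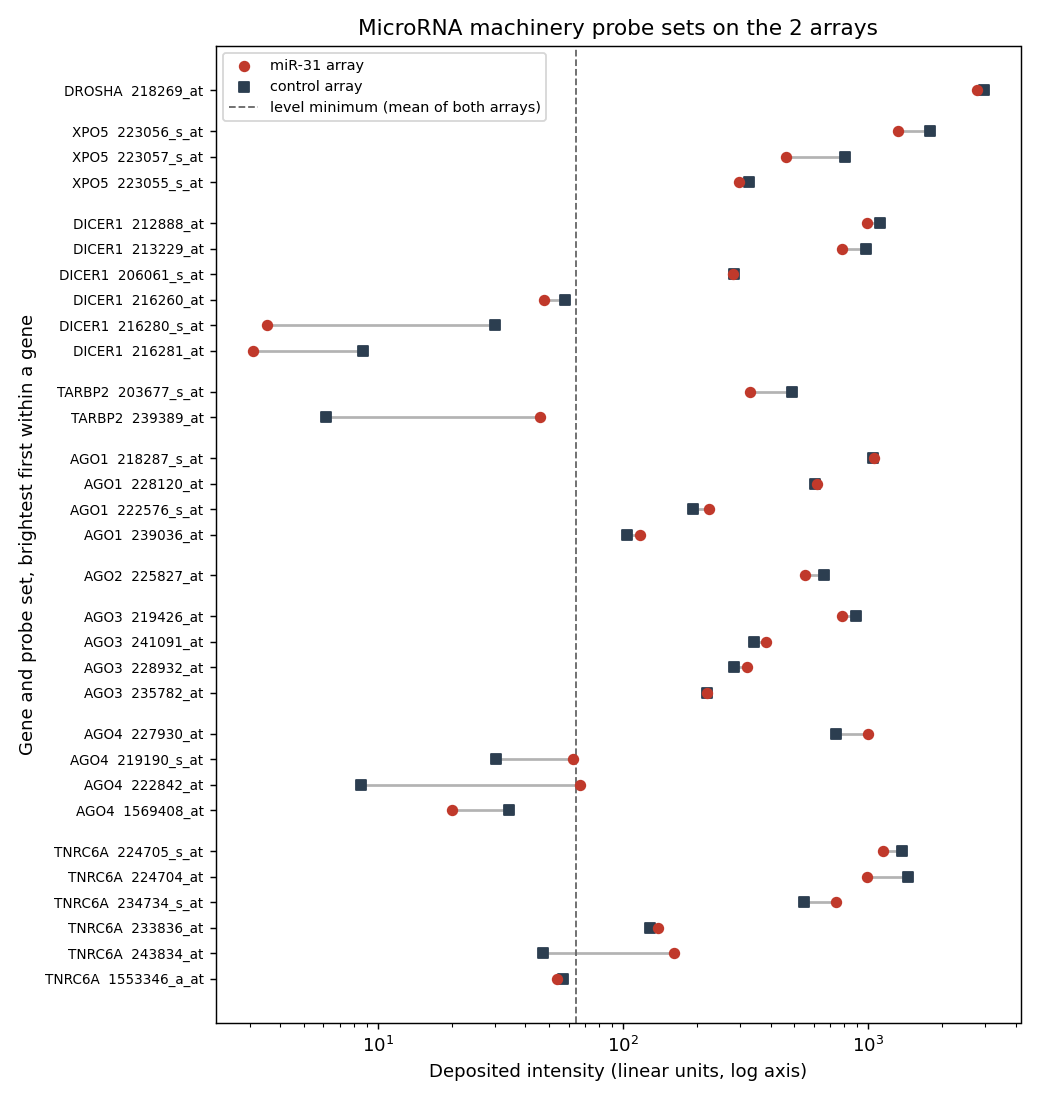
Deposited intensity (log axis) of all 31 probe sets of the 9 genes, with circles for the miR-31 array and squares for the control array and a dashed line at the level minimum of 64.4. The wide gaps are on dim probe sets, while XPO5 has the miR-31 value below the control value on each of its 3 probe sets.

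The 4 Argonautes hold the microRNA strand, and AGO2 alone among them is a well-established slicer of fully paired messages. AGO4, AGO1 and AGO3 stand next to each other, in this order, among the coding genes of chromosome 1, and AGO2 lies on chromosome 8. On the brightest probe sets their ratios were 0.01 for AGO1, -0.25 for AGO2, -0.18 for AGO3 and 0.42 for AGO4. On that scale and choice of probe set the 3 neighbours did not share a direction, but all 3 were higher with the mean of their probe sets (0.10, 0.03 and 0.42 for AGO1, AGO3 and AGO4) and all 3 lower when centred on the poly-A controls.

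AGO1 was nearly equal on the arrays. Its 4 probe sets, from the brightest to the dimmest, had 1055, 620, 224 and 118 in the miR-31 array, against 1046, 606, 193 and 104 in the control array. All 4 were higher in the miR-31 array on the deposited scale, with ratios from 0.01 to 0.20, but the direction of the brightest turned under 5 of 7 other scalings and pseudocounts. AGO2 was read by 1 probe set, with 554 in the miR-31 array and 662 in the control array (-0.25), and 22.8% of all genes lay lower.

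AGO3 had probe sets on both sides of 0. The brightest had 785 in the miR-31 array and 892 in the control array (-0.18). The others had 382, 319 and 220 in the miR-31 array, against 343, 283 and 221 in the control array, with ratios of 0.15, 0.17 and 0.00. The mean of the 4 was 0.03, opposite in sign to the brightest.

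AGO4 was the highest of the 9 genes. Its brightest probe set had 995 in the miR-31 array and 738 in the control array, a ratio of 0.42, and 18.9% of all genes compared had a higher one. Centring on poly-A spike-in controls put it at -0.08. The other 3 probe sets were under the level minimum and disagreed. One had 62.4 in the miR-31 array and 30.3 in the control array (0.76), one 66.5 and 8.56 (1.75), and one 20.1 and 34.2 (-0.47). A pseudocount of 64 put the ratio of the second at 0.85, and a pseudocount of 1 put it at 2.82.

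TNRC6A, the GW182 scaffold that links Argonaute to the deadenylases, had probe sets that disagreed in direction. Its brightest had 1149 in the miR-31 array and 1370 in the control array (-0.25). The second had 991 and 1460 in the same order (-0.55), and the third 739 and 549 (0.42). These opposite values came from probe sets well above the level minimum. The fourth had 139 in the miR-31 array and 129 in the control array (0.10). The fifth had 162 in the miR-31 array and 47.0 in the control array, and its ratio of 1.497 made it the only one of the 23 member probe sets above the minimum to reach 2-fold, against 3.91% higher and 1.79% lower among all named probe sets above it. The control value of that probe set was itself under 64.4, so it passed the minimum only through the miR-31 array and had to differ. The sixth, under the minimum, had 53.8 in the miR-31 array and 56.9 in the control array. Without the fifth, the other 4 ratios above the minimum ran from -0.55 to 0.42, a span of 0.97, and their mean was -0.07. With the fifth the mean was 0.24. Over the 5595 genes with more than 1 probe set above the minimum on both arrays, the median span was 0.35. No direction can be given for TNRC6A as a gene. Which transcript or region each probe set reads was not examined.

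**Figure D3:**
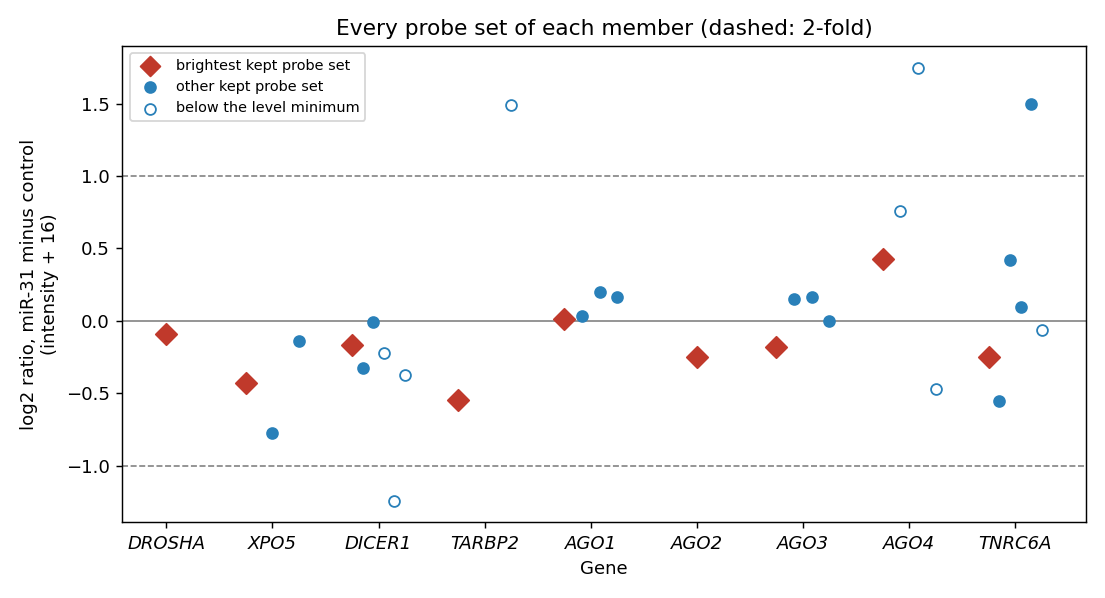
Log2 ratio, miR-31 minus control, of every probe set by gene: diamonds are the brightest probe set, filled circles the others above the level minimum and open circles those under it. XPO5 and DICER1 lie below 0 throughout, AGO1 at or above 0, and TNRC6A runs from -0.55 to 0.42, apart from the one at 1.497 that passed the minimum only through the miR-31 array.

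Over the whole set, 10 of the 23 probe sets above the minimum were higher and 13 lower, with a median of -0.01. At 1.5-fold, 1 was higher and 1 lower, against 12.3% and 6.87% of all named probe sets above the minimum. The 1 higher was the TNRC6A probe set that passed the minimum only through the miR-31 array, so it had to differ. Of the 8 under it, 3 were at least 1.5-fold higher and 1 lower, against 18.8% and 19.2%. Of the 5 genes with more than 1 probe set above the minimum, XPO5 and DICER1 had all of them lower, AGO1 all higher, and AGO3 and TNRC6A some on each side; 43.8% of all such genes had probe sets on both sides of 0. The nearest member probe sets to the minimum were both of TNRC6A, at mean intensities of 104 above it and 55.3 below.

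How many genes of the set were lower depended on the scale. On the deposited scale it was 7 of 9. Beside it stood 46.7% of all genes compared. Quantile normalization, median centring and subtraction of a level trend each gave 8 of 9, beside 51.0%, 48.8% and 49.7% of all genes, and centring on bacterial hybridisation controls gave 8 of 9 beside 65.2%. With centring on the spiked poly-A RNAs all 9 were lower, as were 84.8% of all genes compared, and TARBP2 alone passed 2-fold, at -1.05. Both kinds of control had a median log2 ratio above 0, and centring on them shifts every ratio by -0.19 (18 probe sets) and -0.51 (27 probe sets). When the probe sets of each gene were averaged 5 of 9 were lower, beside 44.7% of all genes, and 6 of 9 when only probe sets above the minimum on both arrays were averaged, a choice made after seeing the data. The share of all genes was not counted for that last choice. Without the probe sets named _s_at or _x_at, XPO5 and TARBP2 had no probe set left above the minimum. Of the 7 genes that remained 5 were lower, beside 45.9% of all genes.

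**Figure D4:**
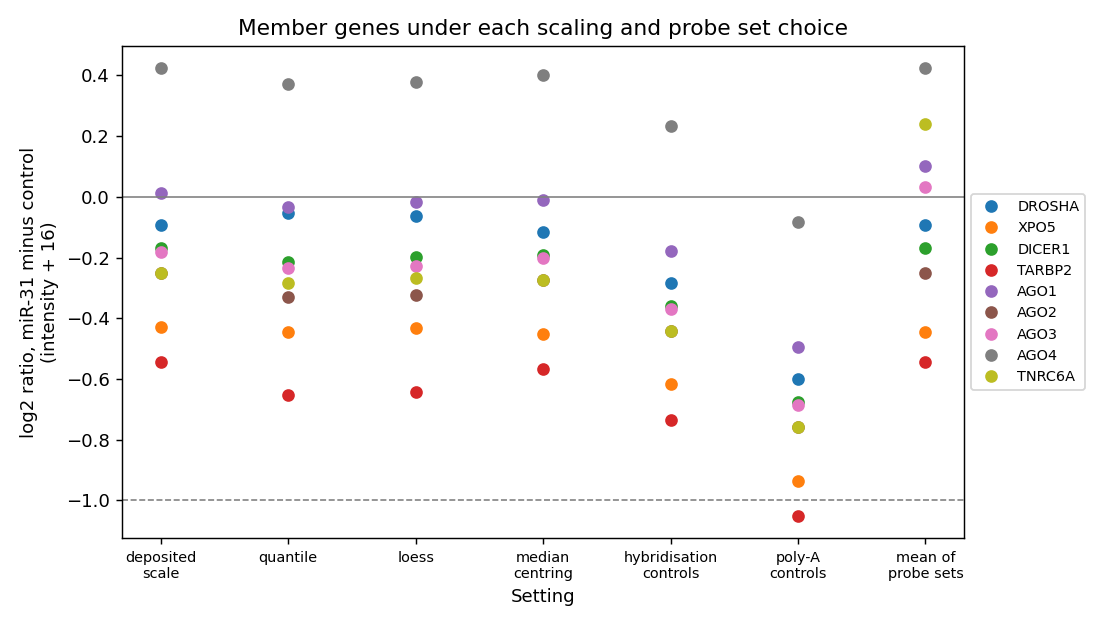
Log2 ratio, miR-31 minus control, of the 9 genes on the deposited scale and under 6 alternatives. AGO4 is the highest of the 9 genes and TARBP2 the lowest in each column shown; AGO4 drops to -0.08 when centred on the poly-A controls, and TNRC6A is at 0.24 with the mean of probe sets, or -0.07 without its probe set that passed the minimum only through the miR-31 array.

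Genes that act beside the machinery were described from lists by role. Of 18 listed partners of nuclear processing and export 16 were compared, and 12 were lower and 4 higher; their median was -0.27. At 1.5-fold, 1 of 16 was higher and 0 lower, against the 12.1% and 6.89% of all genes. That one was ADAR, which edits adenosine in double-stranded RNA and is known to be interferon-inducible, with 5848 in the miR-31 array and 3508 in the control array (0.73). Among genes looked up after values were seen, RAN, the cofactor of XPO5, had 17332 in the miR-31 array and 21997 in the control array (-0.34), and 0.07 on its other probe set. SRRT, which links capped transcripts to DROSHA, had 5213 and 6995 in the same order (-0.42), and its 3 probe sets above the minimum on both arrays lay between -0.42 and -0.20. Another, at 1.97, had 26.5 in the control array and passed only through the miR-31 array. The list median was 0.12 without the probe sets named _s_at or _x_at and 0.02 with the mean of probe sets, so its direction depends on which probe sets are read.

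Of 24 partners of DICER1 and Argonaute 21 were compared, and 11 were higher and 10 lower, with a median of 0.02 that was below 0 under median centring, both spike-in centrings and no level filter. MOV10, an RNA helicase found with Argonaute, had 582 in the miR-31 array and 320 in the control array (0.83). Its second probe set had 354 and 86.8 in the same order (1.85). FKBP4, a co-chaperone of HSP90, had 787 in the miR-31 array and 1208 in the control array (-0.61). HSP90 and its helpers open Argonaute for loading of the duplex, and the others of this group were looked up after values were seen. HSP90AA1 had 25032 in the miR-31 array and 34373 in the control array (-0.46), with 4 probe sets between -0.55 and -0.21. HSP90AB1 had -0.45, CDC37 -0.29 and PTGES3, the co-chaperone p23, -0.26.

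The effectors that TNRC6A recruits lay around 0. Of 27 compared among 29 listed, 17 were higher and 10 lower; the median was 0.10, and -0.09 when centred on hybridisation controls. At 1.5-fold, 2 of 27 were higher and 0 lower, shares below the 12.1% and 6.89% of all genes. PAN2, the catalytic deadenylase subunit, had 282 in the miR-31 array and 153 in the control array (0.82), from 1 probe set. PATL1, a decapping activator, had 1191 and 770 in the same order (0.62), with 4 probe sets between 0.09 and 0.77. Of the paralogues of TNRC6A, looked up for that kinship, TNRC6B had 1350 in the miR-31 array and 1467 in the control array on its brightest probe set (-0.12). All its other probe sets were higher, up to 0.52, and the mean of its 7 probe sets was 0.23. TNRC6C had -0.11 on the 1 probe set above the minimum on both arrays, and 1.13 on one that passed only through the miR-31 array (109 against 40.9 in the control array).

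Enzymes that tail, trim or degrade microRNAs were mostly higher. Of 8 compared among 12 listed, 7 were higher and 1 lower, with a median of 0.38, while 46.7% of all genes compared were lower. At 1.5-fold, 0 of 8 were higher and 0 lower, against 12.1% and 6.89% of all genes. TENT2, a poly(A) polymerase also known as GLD2, had 1277 in the miR-31 array and 905 in the control array (0.49), with 3 probe sets between 0.42 and 0.49. TUT7, a terminal uridylyltransferase, had 619 and 446 in the same order (0.46), with 5 probe sets between 0.32 and 0.46. The probe sets of these 2 genes lay close together. Those of DIS3L2, an exonuclease that degrades uridylated let-7 precursors and the 1 lower gene, did not. Its brightest had 221 in the miR-31 array and 231 in the control array (-0.06). Its 3 probe sets above the minimum on both arrays ran from -1.41 to 0.06. Another, at 1.04, had 63.2 in the control array and passed only through the miR-31 array. DIS3L2 was named after its values were seen. The list median was -0.13 when centred on the poly-A controls. LIN28A and LIN28B, which block let-7 processing, were under the level minimum. So were 11 of the 12 PIWI and piRNA genes with a probe set, the germline relatives of this machinery; the other was TDRKH, with 262 in the miR-31 array and 272 in the control array (-0.05).

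Host transcripts, from which microRNA hairpins are cut, moved apart from each other. Of 8 compared among 14 listed, 5 were higher and 3 lower, with 4 and 2 past 1.5-fold, against 12.1% and 6.89% of all genes. At 2-fold, 0 were higher and 0 lower, against 4.12% and 1.74% of all genes. These zeros depend on the pseudocount, the constant added to each intensity before the logarithm. Without it, MIR31HG, MIRLET7BHG and MIR210HG were each just over 2-fold higher in the miR-31 array. MIR31HG, host of miR-31, had 495 in the miR-31 array and 245 in the control array (0.97). MIRLET7BHG, host of let-7 microRNAs, had 451 and 222 in the same order (0.97). MIR210HG had 301 in the miR-31 array and 150 in the control array (0.94), with 0.69 on its other probe set. MIR100HG had 958 and 621 in that order (0.61). In the other direction MIR4435-2HG had 404 in the miR-31 array and 766 in the control array (-0.90), with -0.23 on its other probe set. MEG3, an imprinted host of many microRNAs, had 157 in the miR-31 array and 245 in the control array (-0.59). Its 5 probe sets above the minimum did not all differ, and ran from -0.61 to 0.01. Whether these differences come with changed processing was not tested.

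**Figure D5:**
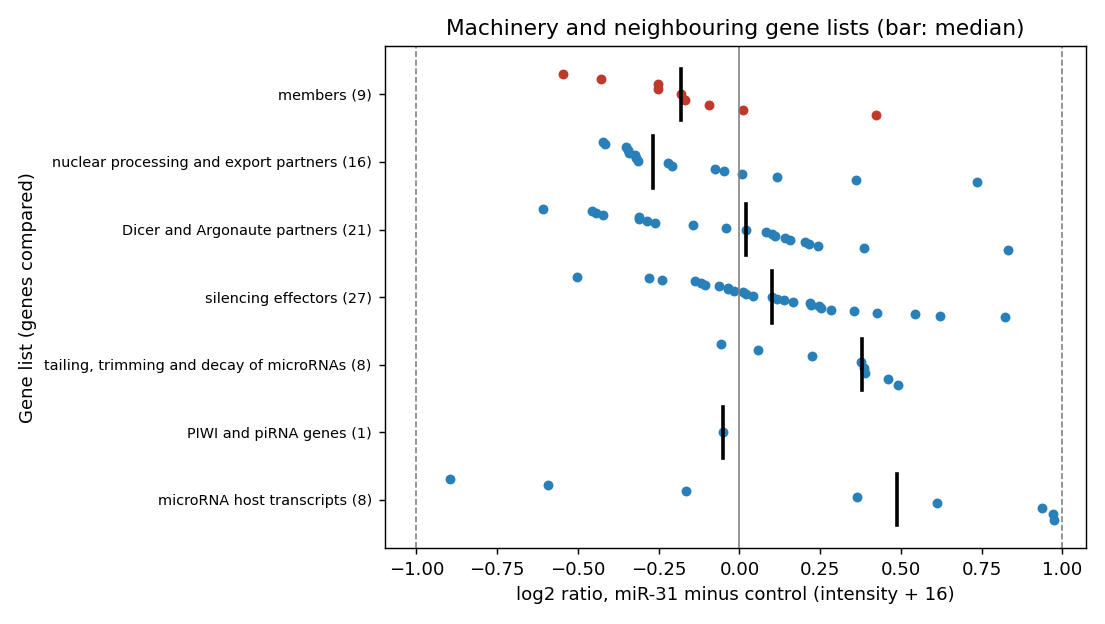
Log2 ratios, miR-31 minus control, of the genes compared in the machinery (top) and in 6 lists of related genes, 1 point per gene on the deposited scale; the bar is the list's median and dashed lines mark 2-fold. The medians run from -0.27 for nuclear partners to 0.49 for host transcripts, and all but that of the members, the nuclear partners and the 1 PIWI and piRNA gene are above 0; those of DICER1 and Argonaute partners, effectors, decay enzymes and host transcripts all lie below 0 when centred on the poly-A controls, and those of the first 2 also when centred on hybridisation controls, while that of the nuclear partners is above 0 with the mean of probe sets or without those named _s_at or _x_at. That of DICER1 and Argonaute partners is also below 0 with median centring and without a level filter.

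As a check of the label, 7 of 10 astroglial or glioma markers were above the level minimum: 3 were higher (GFAP 0.85, SOX2 0.39 and VIM 0.19) and 4 lower (NES -0.91, SOX9 -0.56, FABP7 -0.52 and CD44 -0.24), with a list median of -0.24. S100B, AQP4 and OLIG2 were not. The other NES probe set above the minimum was at 0.03, and the 10 of CD44 ran from -0.69 to 0.28. Of 6 microglia, macrophage or lymphoid markers with a probe set, 2 were just above it, ITGAM and CSF1R, and PTPRC, AIF1, CD14 and CD3E were under it on every probe set. Endothelial markers had 2 genes above it, PECAM1 (0.03) and KDR (-0.90). Of the epithelial markers KRT8 (0.27) and KRT18 were above it, and KRT18 had 2938 in the miR-31 array and 5950 in the control array (-1.01), while EPCAM and CDH1 were under it. Of the fibroblast markers COL1A1 (-0.62) and COL1A2 were above it, while DCN, LUM and PDGFRB were under it. COL1A2 had 21028 in the miR-31 array and 12349 in the control array (0.77). The 3 probe sets of COL1A1 above the minimum ran from -0.74 to 0.11. The part of other cell types in the results was not tested.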

How the data were processed

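Linear intensity values of 54675 probe sets were deposited by the authors for 2 arrays (1 of cells transfected with miR-31, 1 control); per the labels' protocols, 250 ng of total RNA was labelled with a 3' IVT kit. The summary of probes into probe sets was not given in the sources used here, and no detection calls entered. The mean after leaving out 2 percent at each end was 500.1 on both arrays, so each had been scaled to a common level. The 62 control probe sets were left out; 41091 others carried 1 gene symbol, 1801 several and 11721 none. Symbols were checked by Entrez identifier against RefSeq (41037 matched, 0 changed).

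Values were taken as log2(intensity + 16). Probe sets were kept at a mean of 64.4 or more, and the brightest kept one stands for a gene. Members and lists were chosen with earlier results of these data known. Members are named in any case; of each other list, genes past 1.5-fold or otherwise the 2 largest ratios; MIR31HG always; others as said in the text. Alternatives covered scaling, pseudocounts of 1 and 64, the level filter, the choice of probe sets and the threshold. Calculations were tested on simulated data. Work was done in Python 3.11.15 with statsmodels 0.14.6 for loess (span 0.3), numpy 2.4.6 and pandas 2.3.3 for tables, and matplotlib 3.10.9 for plots; scipy was at version 1.17.1.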

Additional observations from a re-analysis of the deposited data

How the results depend on the processing

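No paired analysis was possible because there is 1 array in each group; leaving out an array would leave no comparison. No member was at least 2-fold higher, under any of the 12 alternatives, and none lower except 1 (TARBP2) when centred on the poly-A controls. The same centring, a shift of -0.51 for every gene by construction, moved the member median to -0.69, and the medians of nuclear partners to -0.77, DICER1 and Argonaute partners to -0.48, effectors to -0.40, tailing and decay enzymes to -0.13 and host transcripts to -0.019. Over all alternatives the member median ran from -0.69 to -0.09. At 1.5-fold, 0 of 9 members on the deposited scale became 1 lower after quantile normalization or loess, 2 centred on hybridisation controls and 7 on poly-A controls. With the poly-A centring 84.8% of all genes compared were lower. The share of all genes past 1.5-fold was not counted under these scalings. The nuclear partner median was 0.12 without the probe sets named _s_at or _x_at; the cause was not tested. Of all genes compared, 486 were at least 2-fold higher; this count was 303 centred on hybridisation controls, 165 on poly-A controls, 304 with a pseudocount of 64, 1234 without a level filter and 1425 at 1.5-fold. The count lower, 205, became 386, 1143, 132, 1029 and 813 in the same order. The filter and the threshold set by construction how many genes can be counted. Dim probe sets, with 1 array each and no detection calls, cannot be separated from background here.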

Other observations

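Among the 5 members with more than 1 probe set above the level minimum (XPO5, DICER1, AGO1, AGO3 and TNRC6A), the dimmest had a higher ratio than the brightest in all 5. The difference was between 0.15 and 0.29 for XPO5, DICER1, AGO1 and AGO3. For TNRC6A it was 1.75 with the probe set that passed the minimum only through the miR-31 array, so that it had to differ, and 0.35 without it; on probe sets above the minimum on both arrays it was 5 of 5 members and 54.7% of 5595 genes. Over all 5927 such genes the dimmest was the higher in 54.6%, with a median difference of 0.05. After removal of the level trend the share was 48.6%, and after quantile normalization 48.2%, with 5 of 5 members in both. The use of these settings for this comparison was chosen after seeing the data.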
